A study of Mus musculus with 9 samples.

Results

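The genes described here are 10 genes of MHC class I antigen presentation in the mouse aorta: B2m, H2-K1, H2-D1, H2-T23, Tap1, Tap2, Tapbp, Psmb8, Psmb9 and Nlrc5. On the array they were represented by all probe sets that the platform annotation assigns to one of these symbols, 31 of the 45101 probe sets in the table. Of these, 26 carry 1 gene symbol and 5 carry several. H2-D1 has 11 probe sets and H2-K1 has 6, with 1 counted in both. Tap1 has 4, B2m, H2-T23, Tapbp and Psmb8 have 2 each, and Tap2, Psmb9 and Nlrc5 have 1 each. Both H2-T23 probe sets also carry the symbol of the pseudogene H2-T-ps.

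RNA came from aortas of female mice with the genotype APOE-/- on a C57BL/6 background, 8 weeks old when bought, which ate a diet with 0.2% cholesterol and 10% coconut oil for 30 weeks and so develop atherosclerosis. Each mouse then received 1 tail-vein injection and was killed 10 days later. The PBS group received phosphate-buffered saline (vehicle). The HDAd-0 group received an empty helper-dependent adenovirus, an adenoviral vector from which the viral genes have been removed, and the HDAd-gE3 group received the same kind of vector carrying human apolipoprotein E3. All 3 groups lack mouse apolipoprotein E and ate the same diet. Each array measured 1 pool of 3 aortas (sinus through arch), with 3 arrays in each group, numbered 3, 4 and 5 for HDAd-0, 2, 3 and 4 for HDAd-gE3, and 1, 3 and 4 for PBS. The labels do not name the promoter or the cells that express the transgene.

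Class I molecules display peptides from inside the cell to CD8+ T cells on nearly every nucleated cell. Peptides are cut by the proteasome, in which the subunits Psmb8 and Psmb9 replace constitutive ones after exposure to interferon, are moved into the endoplasmic reticulum by the transporter made of Tap1 and Tap2, and are loaded with the help of tapasin (Tapbp) onto a heavy chain (H2-K1, H2-D1 or the non-classical H2-T23) paired with beta-2 microglobulin (B2m). Nlrc5 is a transactivator of class I genes. In the arterial wall class I is carried by endothelial cells, smooth muscle and the leukocytes of lesions, so an aortic RNA pool sums over all of them.

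Values are log2 signals, so a fold is 2 raised to the difference. Signals spanned 1.98 to 14.7 and array medians 6.67 to 6.77, and the lowest correlation between arrays was 0.991. Several lists of cell type markers differed between the groups. The mean signal of the 8 smooth muscle markers was high throughout, but lower on all HDAd-0 arrays (12.42 to 12.51) than on those of PBS (12.59 to 12.62) and HDAd-gE3 (12.61 to 12.66). Of these markers, 7 had a lower mean with HDAd-0 than with PBS, and all 8 had a higher mean with HDAd-gE3 than with HDAd-0. The mean signal of the 10 endothelial markers ran from 10.09 to 10.17 with PBS, from 10.39 to 10.64 with HDAd-0 and from 10.22 to 10.36 with HDAd-gE3. Liver markers ran from 7.56 to 7.87, from 8.39 to 9.60 and from 7.82 to 8.63 in the same order, skeletal muscle markers from 6.42 to 6.63, from 6.28 to 8.22 and from 5.54 to 6.43, and red cell markers from 7.19 to 7.52, from 8.01 to 8.60 and from 8.44 to 8.89. Single markers disagreed: 5 skeletal muscle and 3 red cell markers had a higher mean with HDAd-0 than with PBS, and 2 and 1 a lower one. The 12 macrophage and dendritic cell markers averaged 10.22 to 10.23 with HDAd-0, 10.04 to 10.12 with PBS and from 10.01 upwards with HDAd-gE3, all 3 of whose arrays lay below those of HDAd-0. Of these 12, 9 had a higher and 3 a lower mean with HDAd-0 than with PBS, with a median difference of 0.046. Cardiac muscle markers were lower with HDAd-0 (12.08 to 12.97) than with PBS (13.29 to 13.34). Neutrophil markers were higher with HDAd-gE3 (9.33 to 10.87) than with PBS (8.46 to 8.73) and HDAd-0 (8.22 to 8.88). All 8 neutrophil markers had a higher mean with HDAd-gE3 than with HDAd-0, with a median difference of 1.41. The part of these cells in the results below was not tested, and in a bulk pool more cells of a type and more RNA per cell cannot be told apart. RNA quality, read from the 3' minus 5' signal of the Actb and Gapdh controls, averaged 0.866 with PBS, 0.933 with HDAd-0 and 0.735 with HDAd-gE3, with SDs of 0.071, 0.16 and 0.069 (n = 3).

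Promoters are shown for the genes that the results turn on, since Psmb9 and Tap1 start next to each other in opposite directions and the heavy chain genes resemble each other in sequence. Psmb9, Tap1, Psmb8 and Tap2 are consecutive protein-coding genes on chromosome 17, which also holds Tapbp, H2-K1, H2-D1 and H2-T23, while B2m lies on chromosome 2 and Nlrc5 on chromosome 8. RefSeq promoter windows were at hand for 8 of the 10 genes, without Tap2 and Nlrc5. The stretch between the start sites of Psmb9 and Tap1 is 225 bases long and lies at chr17:34187331-34187555 (GRCm38.p6), given on the strand of Tap1, so that Psmb9 is transcribed to the left and Tap1 to the right. The 250 bases before the start of H2-K1 lie at chr17:34000348-34000597 on the minus strand, those of H2-D1 at chr17:35262844-35263093 on the plus strand and those of B2m at chr2:122147437-122147686 on the plus strand. H2-K1 had 2 windows, of which only the first was used, so what its stretch holds depends on that start site. Capitals mark matches on either strand to 6 letter patterns, chosen with these promoters in view.
Psmb9-Tap1 stretch: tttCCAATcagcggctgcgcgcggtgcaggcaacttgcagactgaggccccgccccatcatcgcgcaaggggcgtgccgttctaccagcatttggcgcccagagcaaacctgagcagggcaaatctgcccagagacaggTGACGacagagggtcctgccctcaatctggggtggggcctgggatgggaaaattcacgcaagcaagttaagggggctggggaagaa
H2-K1: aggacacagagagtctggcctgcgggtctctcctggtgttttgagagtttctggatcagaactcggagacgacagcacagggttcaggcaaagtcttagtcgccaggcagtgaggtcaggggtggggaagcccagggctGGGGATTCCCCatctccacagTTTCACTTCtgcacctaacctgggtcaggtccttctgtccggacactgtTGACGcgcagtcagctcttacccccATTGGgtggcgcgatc
H2-D1: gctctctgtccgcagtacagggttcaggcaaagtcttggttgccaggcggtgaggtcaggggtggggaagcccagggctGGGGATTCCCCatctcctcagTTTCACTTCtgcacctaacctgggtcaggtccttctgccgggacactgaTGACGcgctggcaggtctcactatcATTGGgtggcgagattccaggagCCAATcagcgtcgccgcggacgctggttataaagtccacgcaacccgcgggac
B2m: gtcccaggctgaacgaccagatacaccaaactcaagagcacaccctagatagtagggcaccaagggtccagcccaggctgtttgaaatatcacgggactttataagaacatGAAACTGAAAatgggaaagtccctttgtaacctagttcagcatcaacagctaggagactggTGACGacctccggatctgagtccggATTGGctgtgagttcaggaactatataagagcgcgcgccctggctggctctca

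The core of the interferon-stimulated response element (GAAA, 2 bases of any kind and GAAA) was found in the B2m stretch and in that of H2-T23, and stands in 2.98% of 32851 RefSeq stretches of 250 bases before a start. The pattern TTCNNNGAA, to which STAT factors can bind, was found only before Psmb8 among the 8 members with a window (7.02% of all stretches). The class I interferon sequence TTTCACTTC (0.402% of all) stands before H2-K1 and H2-D1 and before no other of the 8. So does enhancer A, which NF-kB can bind and whose letters are the first run of capitals in both heavy chain stretches (10 of 32851 stretches, 0.0304%). The CCAAT box was found before 7 of the 8 (33.8% of all) and TGACG, the core of the cyclic AMP response element, before 5 (17.8%); Psmb9 and Tap1 share theirs. Over the 190 aligned positions that the H2-K1 and H2-D1 stretches share, 87.4% are identical. No matches overlapped in the stretches shown. A match of letters is a description and does not show that a factor was bound.

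In the comparison of HDAd-0 with PBS, which sets the empty vector against the vehicle, the members with the highest differences on each gene's brightest probe set were the immunoproteasome subunit Psmb9 and the transporter subunits Tap1 and Tap2, at 1.51-, 1.38- and 1.27-fold the PBS signal, while B2m was at 1.05-fold, Nlrc5 at 1.03-fold and Tapbp within 0.0057 of PBS on the log2 scale. This order holds for the brightest probe sets: the dimmer H2-T23 probe set and the dim one for H2-Q5 and H2-K1 stood at 1.29- and 1.31-fold, above Tap2, and with the mean of a gene's probe sets Tap1 differed by 0.14, below Psmb8 (0.25) and H2-K1 (0.24). No member passed the threshold: of the 26 probe sets with 1 gene, 0 had an adjusted p under 0.05 (limma with Benjamini-Hochberg adjustment over all 45037 probe sets tested), where 4 of all probe sets did (0.00888%). At an unadjusted p under 0.05, 10 of the 26 were higher and 1 was lower, beside 6.59% of all probe sets higher and 5.75% lower. By the brightest probe set of each of the 10 genes, 3 were higher (Psmb9, Tap1 and Tap2) and 0 lower. The brightest probe sets of H2-K1 and H2-D1 were not among those higher at this level, though dimmer ones of both genes were. All 3 HDAd-0 arrays lay above all 3 PBS arrays for 11 of the 26 (9.43% of all probe sets) and below them for 1 (7.46%). These 26 probe sets stand for 9 genes, and those of 1 gene, or of H2-K1 and H2-D1 together, share sequence and are not independent. The count of 10 at unadjusted p moved with single arrays and with the model: without HDAd-0 replicate 5 it was 3, and without PBS replicate 1, 3 or 4 it was 5, 4 and 5. It was 2 with the replicate number as a block, 6 with only the 2 groups compared in the fit and 13 with array weights. Replicate numbers 1, 2 and 5 occur on 1 array each, so the block takes those arrays out of the group differences. Block results here and below thus rest on replicates 3 and 4 of each group, without HDAd-0 replicate 5.

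**Figure D1:**
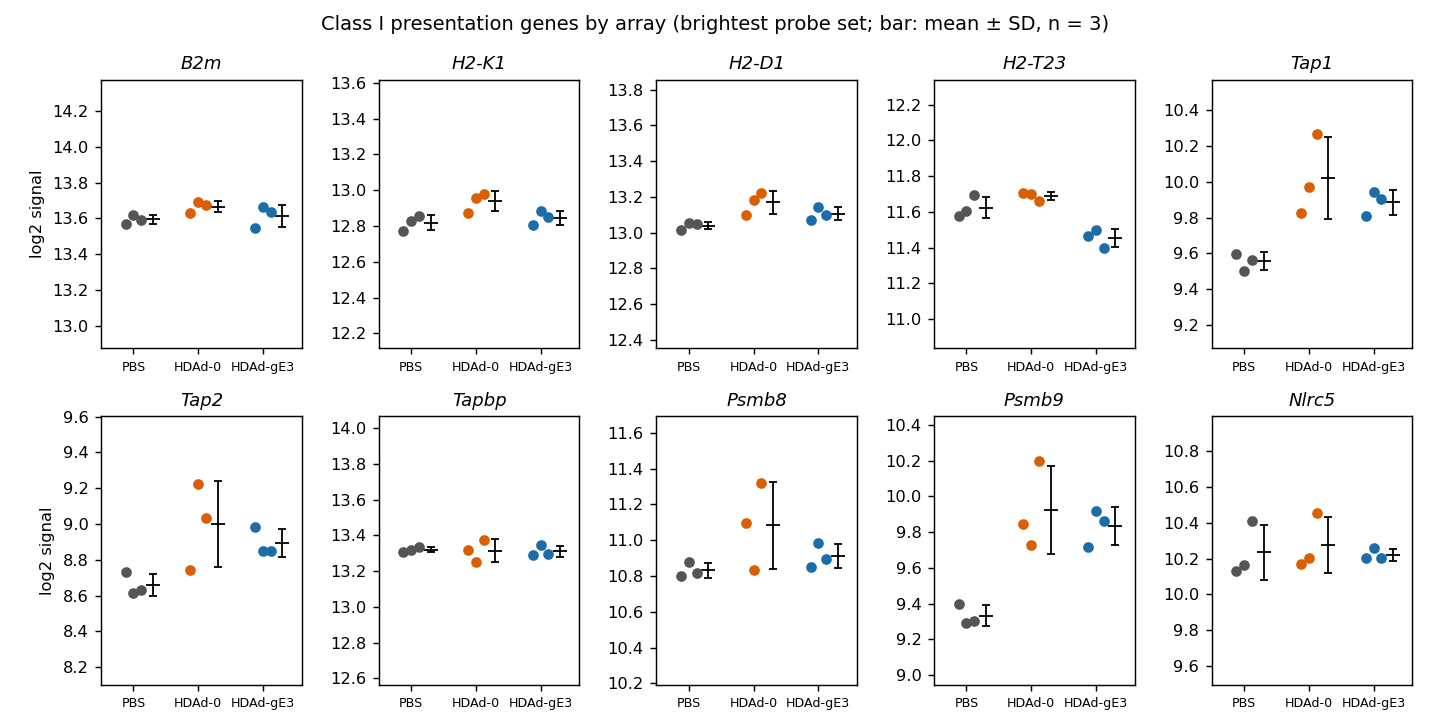
Each panel plots the brightest probe set of 1 gene, with 1 dot per array on the log2 signal axis and the 3 groups on the horizontal axis; the bar is the mean ± SD (n = 3), and every vertical axis spans the same log2 range. The HDAd-0 and HDAd-gE3 dots of Psmb9, Tap1 and Tap2 lie above the PBS dots, those of Tapbp and Nlrc5 overlap with them, and H2-T23 is lowest with HDAd-gE3.

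B2m is the light chain shared by class I molecules. Its brighter probe set read 13.57, 13.62 and 13.59 with PBS, 13.63, 13.69 and 13.67 with HDAd-0, and 13.55, 13.66 and 13.64 with HDAd-gE3. The HDAd-0 arrays lay just above the PBS arrays and the HDAd-gE3 arrays spanned both. The difference between HDAd-0 and PBS was 0.070 ± 0.061 (SE), with a 95% confidence interval from -0.069 to 0.21 (limma, adjusted p = 0.676). Between HDAd-gE3 and HDAd-0 it was -0.051 with an interval from -0.19 to 0.089, and the second probe set differed by 0.042, -0.0092 and 0.033 in HDAd-0 against PBS, HDAd-gE3 against HDAd-0 and HDAd-gE3 against PBS.

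H2-K1 encodes the classical heavy chain K. On its brightest probe set it read 12.77, 12.83 and 12.86 with PBS, 12.87, 12.96 and 12.98 with HDAd-0, and 12.81, 12.88 and 12.85 with HDAd-gE3. All HDAd-0 arrays lay above all PBS arrays, though the gap between the nearest arrays was small. The difference of 0.12 ± 0.063 between HDAd-0 and PBS did not pass (limma, adjusted p = 0.480). Probe sets of lower signal gave higher differences: 0.24 at a mean signal of 12.54, 0.27 at 11.50 and 0.33 at 5.18. The probe set at 11.50 read 11.32, 11.35 and 11.24 with PBS, 11.35, 11.55 and 11.80 with HDAd-0, and 11.64, 11.67 and 11.56 with HDAd-gE3. The lowest HDAd-0 array lay only just above the highest PBS array there, whereas all 3 HDAd-gE3 arrays stood clear of PBS. The group means of HDAd-gE3 and PBS differed by 0.32 ± 0.11 (limma, adjusted p = 0.355).

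H2-D1 encodes the classical heavy chain D. Its brightest probe set read 13.02, 13.05 and 13.05 with PBS, 13.10, 13.18 and 13.22 with HDAd-0, and 13.07, 13.14 and 13.10 with HDAd-gE3. Both vector groups lay above PBS without overlap and overlapped with each other. The difference between HDAd-0 and PBS was 0.13 ± 0.062 and that between HDAd-gE3 and PBS 0.067 ± 0.062 (limma, adjusted p = 0.433 and 0.735). Over the 9 probe sets with H2-D1 alone, the difference between HDAd-0 and PBS ran from -0.22 to 0.23. The negative one belongs to a dim probe set, with a mean signal of 3.46, and the remaining 8 lay between 0.13 and 0.23.

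The heavy chain probe sets are hard to tell apart by gene. Most end in _x_at, the platform's mark for probes that can match other sequences, and 1 that the annotation gives to both H2-K1 and H2-D1 read 9.15 ± 0.030 with PBS, 9.45 ± 0.20 with HDAd-0 and 9.41 ± 0.072 with HDAd-gE3 (SD, n = 3). Its differences from PBS were 0.30 ± 0.10 and 0.26 ± 0.10 (limma, adjusted p = 0.301 and 0.401). The other probe sets with several symbols were a dim one for H2-Q5 and H2-K1 (0.39 in HDAd-0 against PBS, mean signal 3.49) and one for Gm38417, H2-Q2 and H2-D1 (-0.090, mean signal 5.71).

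H2-T23 encodes Qa-1, a non-classical class I molecule that presents leader peptides of other class I chains to receptors of NK cells. Its brighter probe set read 11.58, 11.61 and 11.69 with PBS, 11.70, 11.70 and 11.66 with HDAd-0, and 11.47, 11.50 and 11.40 with HDAd-gE3. All 3 HDAd-gE3 arrays lay below all 6 other arrays. The difference was -0.23 ± 0.063 from HDAd-0 and -0.17 ± 0.063 from PBS, and neither passed (limma, adjusted p = 0.240 and 0.386). The dimmer probe set gave another order, with 6.45, 6.34 and 6.59 for PBS, 6.94, 6.66 and 6.87 for HDAd-0 and 6.70, 6.53 and 6.72 for HDAd-gE3, so that HDAd-gE3 against PBS was -0.17 on the brighter and 0.19 on the dimmer probe set. HDAd-0 against PBS was 0.064 ± 0.063 on the brighter and 0.36 ± 0.10 on the dimmer one (limma, adjusted p = 0.719 and 0.242). The direction for H2-T23 in HDAd-gE3 against PBS is not settled by these arrays.

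Tap1 and Tap2 form the transporter that carries peptides into the endoplasmic reticulum. Tap1 read 9.60, 9.50 and 9.57 with PBS, 9.82, 9.97 and 10.27 with HDAd-0, and 9.81, 9.94 and 9.90 with HDAd-gE3. Every vector array lay above every PBS array, and the 2 vector groups overlapped. The difference was 0.47 ± 0.11 between HDAd-0 and PBS and 0.33 ± 0.11 between HDAd-gE3 and PBS, with confidence intervals from 0.22 to 0.72 and from 0.080 to 0.58, and neither passed (limma, adjusted p = 0.202 and 0.346).

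The other 3 Tap1 probe sets gave smaller differences. Those at mean signals of 2.37 and 2.96 are at the floor of the array. The one at 6.28, listed under the same accession as the bright one, differed by 0.041 ± 0.070 between HDAd-0 and PBS and by -0.069 ± 0.070 between HDAd-gE3 and PBS. The mean over all 4 differed by 0.14 between HDAd-0 and PBS, against 0.47 for the bright one alone.

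Tap2 read 8.73, 8.61 and 8.63 with PBS, 8.74, 9.22 and 9.04 with HDAd-0, and 8.98, 8.85 and 8.85 with HDAd-gE3. HDAd-0 replicate 3 lay just above the highest PBS array, and the other vector arrays stood further above. The difference was 0.34 ± 0.12 between HDAd-0 and PBS and 0.24 ± 0.12 between HDAd-gE3 and PBS (limma, adjusted p = 0.310 and 0.502).

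Tapbp encodes tapasin, which bridges the transporter and the empty class I molecule. Its brighter probe set read 13.31, 13.32 and 13.33 with PBS, 13.32, 13.25 and 13.38 with HDAd-0, and 13.29, 13.35 and 13.30 with HDAd-gE3. The groups overlapped throughout. The difference between HDAd-0 and PBS was -0.0057 ± 0.061 with an interval from -0.15 to 0.13, which does not reach the 0.47 of the bright Tap1 probe set. The dimmer probe set, at a mean of 7.24, differed by 0.20 ± 0.12 between HDAd-gE3 and PBS (limma, adjusted p = 0.587).

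**Figure D2:**
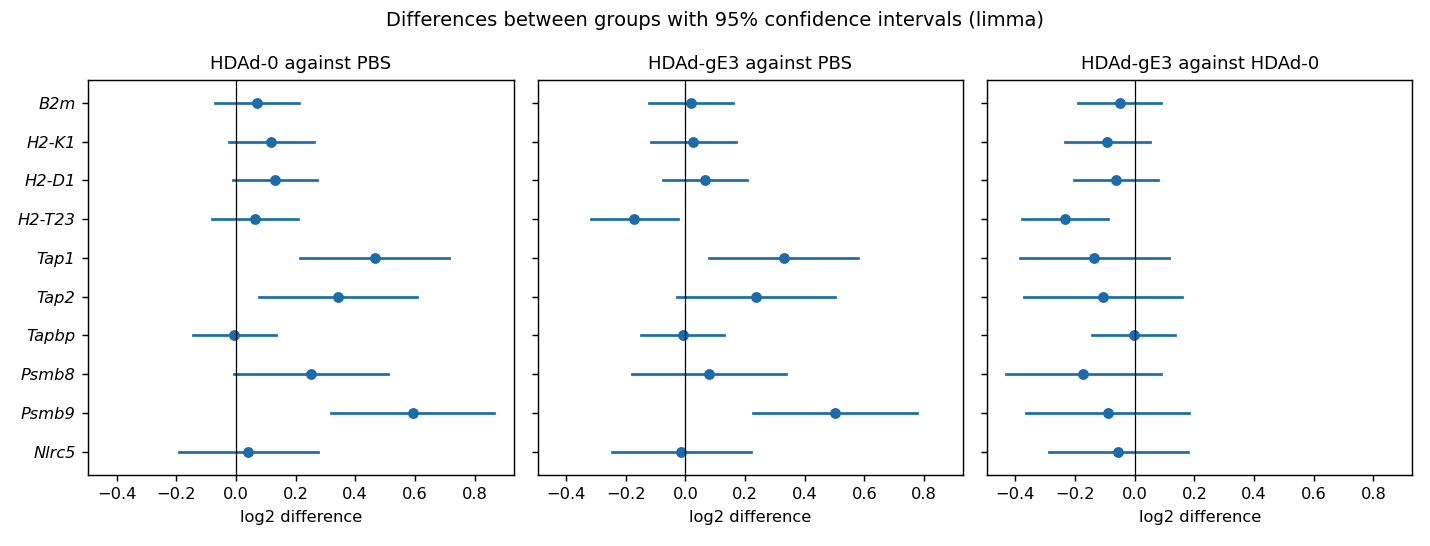
Points show the log2 difference between groups for each of the 10 genes, from its brightest probe set, and lines the 95% confidence interval from limma, in 1 panel per comparison. The intervals of Psmb9 and Tap1 lie above 0 in both comparisons with PBS, those of Tapbp and Nlrc5 span 0 in all 3, and that of H2-T23 lies below 0 where HDAd-gE3 is compared; the intervals are not adjusted for the number of probe sets tested.

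Psmb9 encodes the inducible beta1i subunit of the proteasome. It read 9.40, 9.29 and 9.30 with PBS, 9.85, 9.73 and 10.20 with HDAd-0, and 9.72, 9.92 and 9.86 with HDAd-gE3. Every vector array lay above every PBS array, by at least as much as the whole spread of the PBS arrays. The difference was 0.59 ± 0.12 between HDAd-0 and PBS, with an interval from 0.32 to 0.87, and 0.50 ± 0.12 between HDAd-gE3 and PBS, with an interval from 0.23 to 0.78, and neither passed over all probe sets (limma, adjusted p = 0.172 and 0.221). The 2 vector groups differed by -0.091 ± 0.12, with an interval from -0.37 to 0.18.

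Psmb8 encodes the inducible beta5i subunit. Its brighter probe set read 10.80, 10.88 and 10.82 with PBS, 11.10, 10.83 and 11.32 with HDAd-0, and 10.85, 10.99 and 10.90 with HDAd-gE3. The groups overlapped, and HDAd-0 replicate 4 lay among the PBS arrays. The difference between HDAd-0 and PBS was 0.25 ± 0.11 and that between HDAd-gE3 and PBS 0.079 ± 0.11 (limma, adjusted p = 0.419 and 0.843). The second probe set, dim at 4.13, differed by 0.25 and 0.053 in these comparisons.

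Nlrc5 read 10.13, 10.16 and 10.41 with PBS, 10.17, 10.20 and 10.46 with HDAd-0, and 10.20, 10.26 and 10.20 with HDAd-gE3. The groups overlapped, with 1 array in each of the PBS and HDAd-0 groups standing above the rest. The difference between HDAd-0 and PBS was 0.041 ± 0.10, with an interval from -0.19 to 0.27, and that between HDAd-gE3 and PBS -0.014 ± 0.10, with an interval from -0.25 to 0.22 (limma, adjusted p = 0.901 and 0.975).

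HDAd-0 replicate 5 read highest of all arrays for Psmb9, Tap1, Psmb8, Nlrc5, Tapbp and the brightest probe sets of H2-K1 and H2-D1. It was also the highest array in the mean of the liver, skeletal muscle, endothelial, T cell and NK cell markers, at 9.60, 8.22, 10.64, 8.71 and 7.10. Without it the difference between HDAd-0 and PBS was 0.45 for Psmb9, 0.34 for Tap1 and 0.13 for Psmb8 (limma, adjusted p = 0.181, 0.224 and 0.600). The part of these other cells in its values was not tested. Without HDAd-0 replicate 4, which read lowest of its group for Psmb9 and Psmb8, Psmb9 differed by 0.69 and passed (limma, adjusted p = 0.0426), and it was then the 1 member called.

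HDAd-gE3 was next set against HDAd-0, which differs from it by the human apolipoprotein E3 gene. All 10 genes had a lower mean with HDAd-gE3 on their brightest probe set, with a median of -0.091 beside -0.017 over all probe sets, of which 45.4% had a higher mean. Among probe sets with a mean signal of at least 6, the median was 0.00072 and 50.2% had a higher mean. The median of the members was -0.042 without HDAd-0 replicate 5 and -0.017 with the replicate block. The differences ran from -0.0033 for Tapbp to -0.23 for H2-T23. No member passed, and none of the 45037 probe sets did (0%; limma). At an unadjusted p under 0.05, 3 of the 26 probe sets with 1 gene were lower and 0 higher, beside 6.76% of all probe sets lower and 6.08% higher. The count lower was 7 without HDAd-0 replicate 3 and 5 without HDAd-0 replicate 4, and without HDAd-0 replicate 5 it was 2, with 1 higher. It was 10 after median centring, 7 after a further quantile normalization and with the 3' minus 5' signal as a covariate, and 5 with array weights or an intensity trend. The 3 were H2-D1 probe sets of middling or low signal, at means of 9.65, 6.29 and 5.68, with differences of -0.21, -0.24 and -0.46, while the brightest H2-D1 probe set differed by -0.064 ± 0.062. All HDAd-gE3 arrays lay below all HDAd-0 arrays for 5 of the 26 (9.56% of all) and above them for 0 (6.3%). This comparison shares the HDAd-0 arrays with the first one, so an HDAd-0 array that reads high moves both.

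The comparison of HDAd-gE3 with PBS sets the full vector against the vehicle. Psmb9 (0.50), Tap1 (0.33) and Tap2 (0.24) again had the highest differences among the brightest probe sets, and H2-T23 (-0.17) the lowest. None of the 26 probe sets passed, where 1 of all probe sets did (0.00222%; limma). At an unadjusted p under 0.05, 3 were higher, the probe sets of Psmb9 and Tap1 and that of H2-K1 at 11.50, and 2 were lower, both dim H2-D1 probe sets, beside 5.54% and 5.47% of all probe sets. The 3 became 5 without HDAd-0 replicate 3, which enters only through the shared spread, and the 2 became 1 without PBS replicate 3, PBS replicate 4 or HDAd-gE3 replicate 3. With only the 2 groups compared in the fit the count higher was 6, with array weights 5 and with the 3' minus 5' covariate 1. All HDAd-gE3 arrays lay above all PBS arrays for 9 of the 26 (10.6% of all) and below them for 1 (10.3%). Over the 10 genes the median difference came to 0.047, beside -0.0047 over all probe sets, and in HDAd-0 against PBS to 0.12, beside 0.010. Among probe sets with a mean signal of at least 6, as the members' brightest ones have, the medians were 0.0087 and 0.0058. The median of 0.047 was 0.0076 after median centring, 0.025 with the 3' minus 5' covariate, and 0.025 to 0.071 when 1 array was left out.

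**Figure D3:**
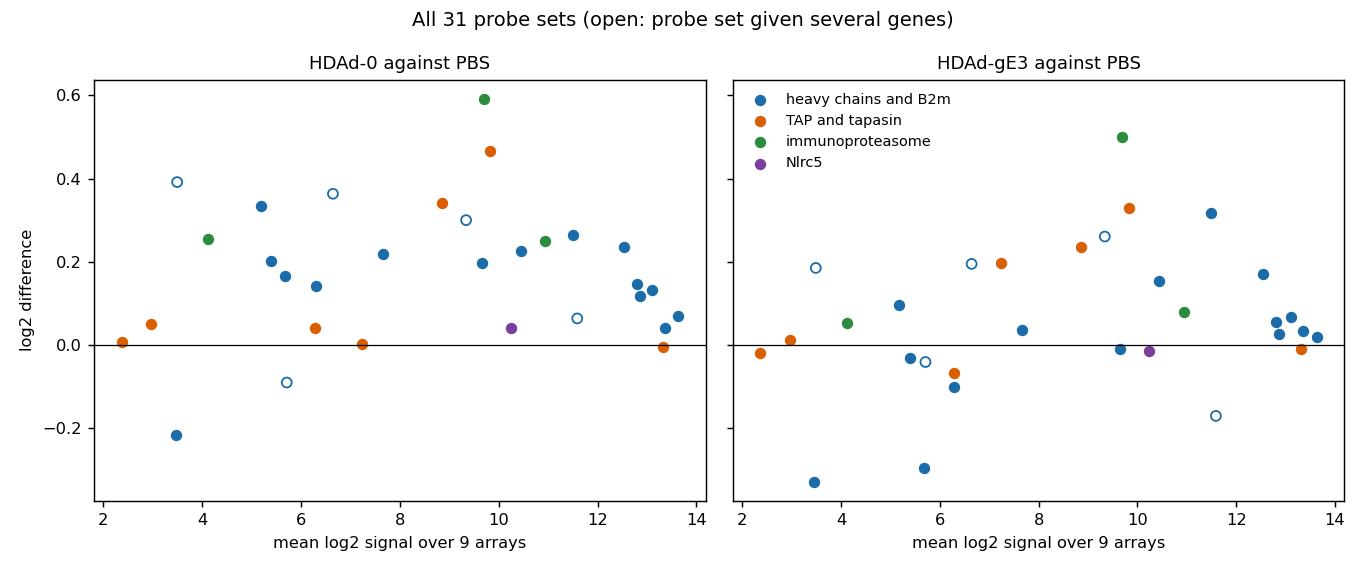
Each point is 1 of the 31 probe sets, placed by its mean log2 signal over the 9 arrays and by its log2 difference between groups; filled points have 1 gene symbol and open ones several. In HDAd-0 against PBS 28 of the 31 lie above 0, and in HDAd-gE3 against PBS 20 do, beside 52.9% and 48.7% of all probe sets. Many of the points are H2-K1 and H2-D1 probe sets, which share sequence and are not independent. The 4 brightest points, of B2m, Tapbp and H2-D1, lie between -0.0090 and 0.13 in both. Colours mark heavy chains with B2m, the transporter with tapasin, the immunoproteasome subunits and Nlrc5.

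The inducible proteasome subunits were set against the constitutive subunits they replace, as a log2 ratio within each array; this was chosen after the values had been seen. Psmb9 over Psmb6 was -3.52, -3.58 and -3.51 with PBS, -3.06, -3.19 and -2.81 with HDAd-0, and -3.28, -3.06 and -3.14 with HDAd-gE3. Every vector array lay above every PBS array, and the group means differed by 0.52 and 0.38 from PBS (exact permutation test, two-sided, p = 0.1 for each, the smallest that 3 against 3 arrays can give; adjusted p = 0.18 over 9 tests). Psmb8 over Psmb5 was -1.74, -1.73 and -1.70 with PBS, -1.41, -1.34 and -1.31 with HDAd-0, and -1.71, -1.63 and -1.66 with HDAd-gE3. Here the HDAd-0 arrays stood apart from both other groups, by 0.37 from PBS and 0.32 from HDAd-gE3 (exact permutation p = 0.1 for each), and HDAd-gE3 against PBS was 0.052 (exact permutation p = 0.2). Psmb5 itself, the denominator, read 12.54, 12.61 and 12.51 with PBS, 12.51, 12.17 and 12.62 with HDAd-0, and 12.56, 12.62 and 12.56 with HDAd-gE3. HDAd-0 replicate 4 alone was low in Psmb5, which carries the difference of -0.12 ± 0.11 between HDAd-0 and PBS. Its ratio lies with those of the other HDAd-0 arrays through this low denominator, since its Psmb8 signal lay among the PBS arrays.

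Psmb10, the remaining inducible subunit, over Psmb7 was -1.07, -0.99 and -1.05 with PBS, -0.90, -0.88 and -0.78 with HDAd-0, and -0.81, -0.98 and -1.01 with HDAd-gE3. The HDAd-0 arrays lay above the PBS arrays by 0.19 in the mean (exact permutation p = 0.1), and the HDAd-gE3 arrays spanned both groups. The constitutive subunits themselves differed little between HDAd-0 and PBS. Of the 14 genes of the constitutive core, 7 had a higher and 7 a lower mean in HDAd-0 against PBS with a median of 0.012, none passed, and at an unadjusted p under 0.05 Psma5 alone was higher (0.17 ± 0.072; limma, adjusted p = 0.385). In HDAd-gE3 against PBS 10 of the 14 had a higher and 4 a lower mean, with a median of 0.051. All 3 HDAd-gE3 arrays lay above all 3 PBS arrays for 6 of them (10.6% of all probe sets) and below them for 1 (10.3%). Psmb2 differed by 0.29 ± 0.075 in this comparison (limma, adjusted p = 0.242).

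**Figure D4:**
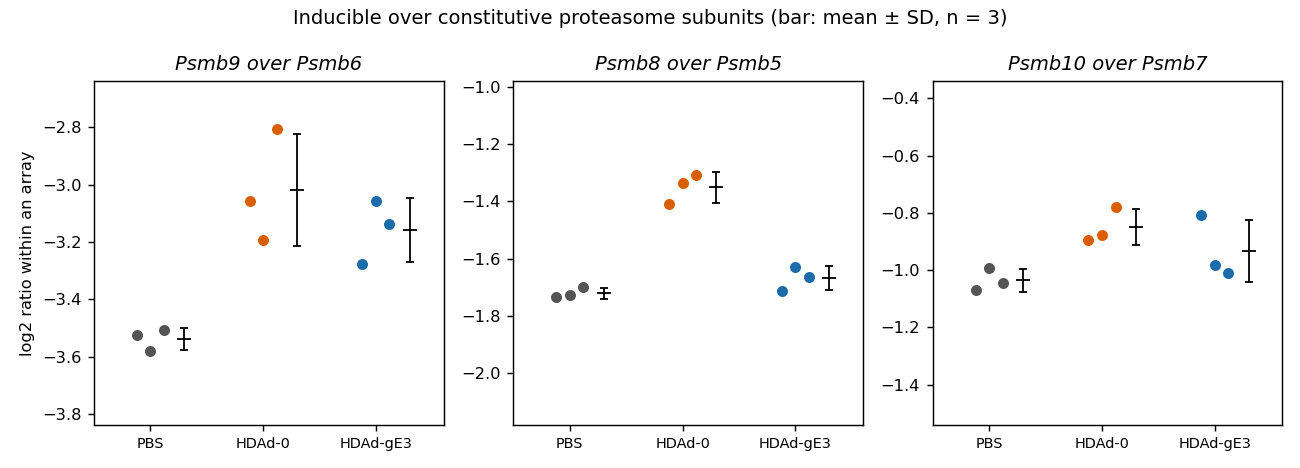
Dots show, for each array, the log2 ratio of an inducible proteasome subunit to the constitutive subunit it replaces, and bars the mean ± SD (n = 3). The 3 HDAd-0 dots lie above the 3 PBS dots for all 3 pairs, and the HDAd-gE3 dots do so for Psmb9 over Psmb6 only without overlap.

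Other genes of the pathway were counted by 8 lists, each gene by its brightest probe set with 1 gene; 120 of their 148 genes were measured in this way, and none passed in any of the 3 comparisons. Their counts stand beside 52.9% of all probe sets with a higher mean in HDAd-0 against PBS and 48.7% in HDAd-gE3 against PBS, and beside the shares at an unadjusted p under 0.05 given above. Among probe sets with a mean signal of at least 6, 51.7% and 52.3% had a higher mean in these comparisons. Of other class I heavy chains, 8 of 19 were measured. H2-M3, which presents formylated peptides, differed by 0.26 ± 0.081 between HDAd-0 and PBS and 0.20 ± 0.081 between HDAd-gE3 and PBS (limma, adjusted p = 0.282 and 0.426), and was the 1 gene of that list higher at an unadjusted p under 0.05. Among class I-like molecules, 7 of 8 had a higher mean in HDAd-0 against PBS, with a median of 0.28, and 3 were higher at an unadjusted p under 0.05 (6.59% of all probe sets). Mr1, which presents vitamin B metabolites to MAIT cells, read 8.87, 8.81 and 8.92 with PBS, 9.17, 9.27 and 9.18 with HDAd-0, and 9.13, 9.16 and 9.23 with HDAd-gE3. Every vector array lay above every PBS array, with differences of 0.34 ± 0.065 and 0.31 ± 0.065 (limma, adjusted p = 0.154 and 0.174). H60c, a ligand of the NK receptor NKG2D, differed by 0.53 ± 0.072 between HDAd-0 and PBS at low signal (4.50 against 3.97; limma, adjusted p = 0.0821).

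Of 14 measured genes for peptide loading and trimming, 9 had a higher mean in HDAd-0 against PBS, with a median of 0.076. Tapbpl, a relative of tapasin that edits peptides, differed by 0.28 ± 0.084, Psme1, a subunit of the interferon-inducible proteasome activator, by 0.16 ± 0.071 and Psmb10 by 0.18 ± 0.077 (limma, adjusted p = 0.269, 0.403 and 0.405). Erap1, the aminopeptidase that trims peptides in the endoplasmic reticulum, differed by -0.26 ± 0.081 between HDAd-gE3 and HDAd-0 (limma, adjusted p = 0.278). The chaperones Calr and Canx differed by 0.080 and -0.0028 between HDAd-0 and PBS.

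Among 23 measured genes of class I transcription and interferon-gamma signalling, HDAd-0 gave 7 higher and 0 lower than PBS at an unadjusted p under 0.05, and HDAd-gE3 gave 4 higher and 0 lower. Over all probe sets 6.59% were higher and 5.75% lower with HDAd-0, and 5.54% and 5.47% with HDAd-gE3. Ifngr2, the second chain of the interferon-gamma receptor, read 10.18, 10.30 and 10.13 with PBS, 10.47, 10.54 and 10.60 with HDAd-0, and 10.55, 10.59 and 10.60 with HDAd-gE3. Every vector array lay above every PBS array, and the differences of 0.34 ± 0.070 and 0.38 ± 0.070 did not pass (limma, adjusted p = 0.172 and 0.138). The factor Irf7 differed by 0.32 ± 0.099 between HDAd-0 and PBS and by -0.31 ± 0.099 between HDAd-gE3 and HDAd-0, and Irf8 by -0.21 ± 0.069 in the second of these (limma, adjusted p = 0.283, 0.293 and 0.297). The cytokine gene Ifng itself was near the floor on all arrays, with group means from 4.03 to 4.11.

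The 22 measured interferon-inducible GTPases and antiviral genes had a median of 0.21 in HDAd-0 against PBS, with 21 higher in the mean (52.9% of all probe sets) and 6 higher at an unadjusted p under 0.05 (6.59%). They had a median of 0.033 in HDAd-gE3 against PBS, with 15 higher in the mean (48.7%) and 2 higher at an unadjusted p under 0.05 (5.54%). Both of these also appear with HDAd-0: Rsad2, which blocks viral replication, differed from PBS by 0.49 ± 0.12 with HDAd-0 and 0.70 ± 0.12 with HDAd-gE3 (limma, adjusted p = 0.213 and 0.136), and Mx1 by 0.28 and 0.39. The 11 measured genes of MHC class II presentation had a median of 0.40 in HDAd-0 against PBS, with 8 higher at an unadjusted p under 0.05 (6.59% of all probe sets), and of 0.17 in HDAd-gE3 against PBS, with 2 higher (5.54%). Their transactivator Ciita differed by 0.78 ± 0.11 and 0.52 ± 0.11 from PBS (limma, adjusted p = 0.0854 and 0.174), where the class I transactivator Nlrc5 differed by 0.041 and -0.014.

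**Figure D5:**
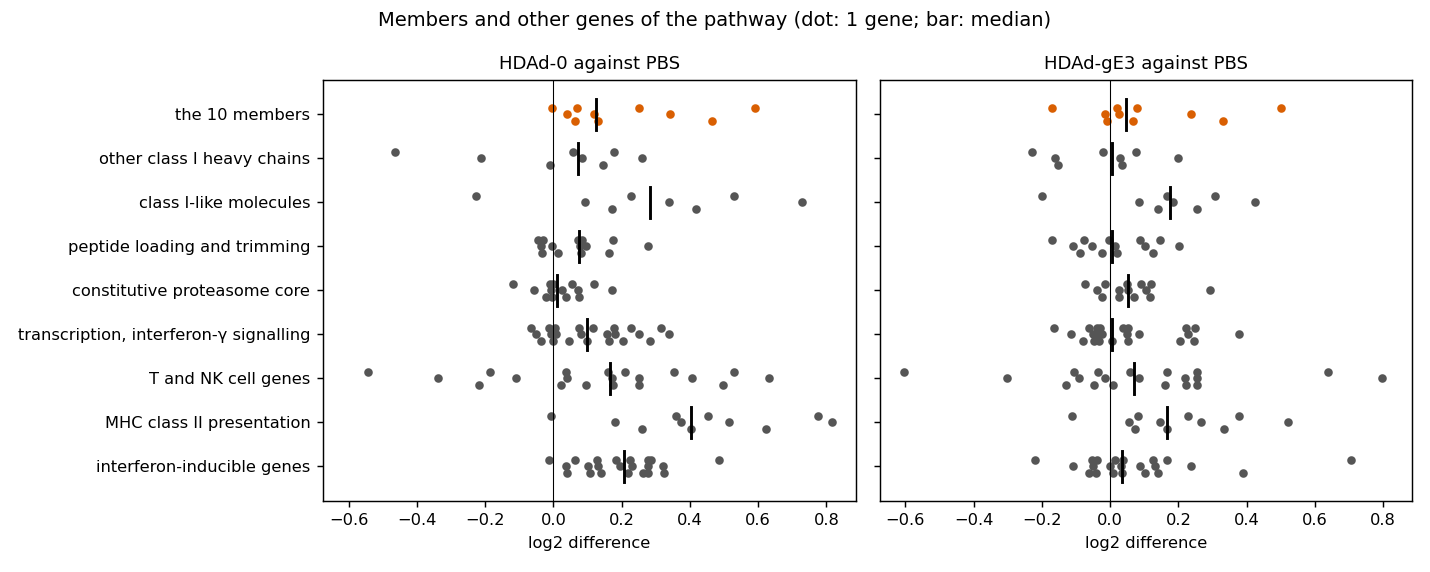
Dots show the log2 difference of each gene and bars the median of each list, for the 10 members and the 8 other lists of the pathway, in HDAd-0 and HDAd-gE3 against PBS. The medians of the members are 0.12 and 0.047, those of MHC class II presentation 0.40 and 0.17, and those of the constitutive proteasome core 0.012 and 0.051; both comparisons share the PBS arrays.

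Of 20 measured genes of the T and NK cells that recognise class I, 0 were higher or lower at an unadjusted p under 0.05 in any comparison. They varied between arrays of the same group, with a list mean of 6.59 on HDAd-0 replicate 4 and 7.53 on HDAd-0 replicate 5. Cd8a, the co-receptor for class I on T cells, read 9.07, 9.23 and 8.38 with PBS, 8.04, 7.71 and 9.31 with HDAd-0, and 7.59, 8.05 and 9.23 with HDAd-gE3. Rag1, a recombinase of immature lymphocytes, read 8.58, 8.85 and 7.09 with PBS, 7.29, 6.94 and 8.79 with HDAd-0, and 5.31, 6.15 and 8.74 with HDAd-gE3. In each group the array highest in Cd8a was also the highest in Rag1.

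By likeness over the 9 arrays, the 8 genes outside the 10 members that ran most closely with the mean of the members' standardised values were Cd74, Mmp12, Plagl1, Procr, H2-Aa, Sfrp1, H2-Eb1 and Efna1, among 11531 genes with a mean signal of at least 7. The likeness, a Pearson correlation given as a description over arrays that share their groups, was 0.973 for Cd74 and 0.929 for Efna1, and within groups 0.949 and 0.803. Cd74, the invariant chain of MHC class II, read 13.41, 13.42 and 13.48 with PBS, 13.49, 13.60 and 13.76 with HDAd-0, and 13.46, 13.55 and 13.53 with HDAd-gE3. Its highest array was HDAd-0 replicate 5, as for the brightest probe sets of Psmb9, Tap1, Psmb8, Nlrc5, Tapbp, H2-K1 and H2-D1. Those of B2m and Tap2 were highest on HDAd-0 replicate 4, and that of H2-T23 on HDAd-0 replicate 3. Among the members themselves H2-D1 and H2-K1 lay closest to the common profile (0.949 and 0.937), and H2-T23 and Tapbp farthest (0.345 and 0.428). Each member is part of that profile, so these values cannot be set beside those of genes outside it. H2-D1 and H2-K1 also share sequence.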

How the data were processed

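Biotin-labelled RNA (FL-Ovation kit, per the labels' protocols) was read on Affymetrix mouse arrays. The authors deposited log2 signals; the submitters' processing notes name RMA, whose version the sources used here do not give. Its quantile step evens out the arrays, which hides any shift common to most genes. Nothing in the labels says how independent the pools are, so p-values measure the spread between these pools. The sample titles carry running numbers in blocks by group; order and group cannot be told apart.

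Names came from the platform annotation: 34945 probe sets with 1 gene, 932 with several, 9160 with none and 64 controls, which were left out. Of these, 34741 were matched to RefSeq (GRCm38.p6) by gene identifier. Limma 3.58.1 in R 4.3.3 was fitted to 45037 probe sets on the 9 arrays (lmFit, eBayes, 6 residual degrees of freedom, no filter), with p adjusted by Benjamini-Hochberg over all of them and a threshold of 0.05. The fit was tested on simulated data with normal noise and 200 changed probe sets in HDAd-0 against PBS. It recovered 30.1% of log2 changes of 0.5, 77% of 1 and 96.4% of 2, and 6.62% of the calls were false. A member that did not pass is thus not shown to be unchanged. Lists used each gene's brightest probe set with 1 gene. Named were all member probe sets and, per list and comparison, up to 3 genes with the smallest p, as none passed; not all are printed. Calr, Canx, Ifng, Rag1 and Psmb5 were named after their values were seen, and the proteasome ratios and promoter patterns were chosen with values and sequences in view. The members and lists were chosen with earlier results of these data known. Alternatives changed the probe set choice, dim filter, scaling, arrays fitted, replicate block, weights, trend, RNA quality term and threshold. Figures were drawn with matplotlib 3.10.9. The number of arrays limits the precision.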

Additional observations from a re-analysis of the deposited data

How the results depend on the processing

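Over 11 alternatives and 9 fits that left out 1 array, 0 member probe sets were called, except 1 (Psmb9, 0.691; limma, adjusted p = 0.0426) in HDAd-0 against PBS without HDAd-0 replicate 4. Psmb9 ran from 0.454 to 0.691 in HDAd-0 against PBS (adjusted p 0.0426 to 0.479) and from 0.340 to 0.593 in HDAd-gE3 against PBS (0.0526 to 0.542). The median of the 10 genes in HDAd-gE3 against HDAd-0, -0.0914, was -0.156 after median centring and -0.0166 with the replicate block, and ran from -0.127 to -0.0419 without single arrays; that in HDAd-gE3 against PBS, 0.0467, was 0.0076 after median centring. Of the differences of single genes 566 kept their direction and call and 30 changed sign. With the mean of a gene's probe sets, Tapbp was 0.0954 in HDAd-gE3 against HDAd-0 and 0.0940 against PBS, and H2-D1 was -0.0509 in HDAd-gE3 against PBS. After median centring, Tapbp was 0.0197 in HDAd-0 against PBS, and in HDAd-gE3 against PBS B2m was -0.0195 (-0.0199 after quantile normalization again) and H2-K1 was -0.0126. With array weights, Tapbp was 0.0134 in HDAd-0 and 0.0044 in HDAd-gE3 against PBS, and Nlrc5 0.0185 in the latter. With the RNA quality covariate, Tapbp was 0.0147 in HDAd-0 and Psmb8 -0.0637 in HDAd-gE3 against PBS. With the replicate block, Nlrc5 was -0.100 in HDAd-0 against PBS, and in HDAd-gE3 against HDAd-0 Tap1 was 0.0281, Tapbp 0.0392, Psmb9 0.105 and Nlrc5 0.0449. Without single arrays, HDAd-0 against PBS ran from -0.0368 to 0.0269 for Tapbp and from -0.0483 to 0.130 for Nlrc5. HDAd-gE3 against HDAd-0 ran from -0.235 to 0.0056 for Tap2, from -0.0359 to 0.0278 for Tapbp, from -0.190 to 0.0467 for Psmb9 and from -0.108 to 0.0345 for Nlrc5. HDAd-gE3 against PBS ran from -0.0035 to 0.0536 for B2m, from -0.0275 to 0.0024 for Tapbp and from -0.0656 to 0.0747 for Nlrc5. None of these passed the test, and the cause of each was not tested. The groups share only replicate numbers 3 and 4, which no label ties to a batch. Deviations from the group means correlated from 0.0112 to 0.128 between same-numbered arrays (median 0.0643, 6 pairs). Between arrays of other numbers and groups they ran from -0.206 to 0.189 (median -0.0073, 21 pairs), a range that holds the former. The replicate block, with 2 residual degrees of freedom, rests on replicates 3 and 4 of each group, since the other numbers occur on 1 array each. It called 0 members and changed no call at an adjusted p. The count higher at an unadjusted p in HDAd-0 against PBS went from 10 to 2, a change that includes the loss of the other arrays.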
